A study of Mus musculus with 57 samples.

Results

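Tissue forms of 5 metabolic enzymes were compared between brain cortexes and gastrocnemius muscles: the creatine kinases Ckm (muscle) and Ckb (brain), the enolases Eno3 (muscle) and Eno2 (neuron), the glycogen phosphorylases Pygm (muscle) and Pygb (brain), the aldolases Aldoa (muscle) and Aldoc (brain), and the lactate dehydrogenases Ldha (muscle) and Ldhb (heart, also used by brain). The 10 genes were taken by name from the curated RefSeq genes of mm10, and they held 14 distinct transcription start sites (TSSs) out of 31554 in 26089 genes. For each of H3K4me3, H3K27ac and H3K27me3, chromatin immunoprecipitation and sequencing gave 9 cortex and 10 gastrocnemius libraries, 57 in all. All mice were PSAPP, a transgenic Alzheimer's disease model that expresses a mutated human presenilin 1 and a mutant chimeric mouse/human amyloid precursor protein. No library of a mouse without these transgenes was analysed, and the promoters that drive them are not given in the sources used here. The mice were 13 months old and of both sexes, were housed alone on a modified AIN-93 diet from 6 months of age at 11.2 kcal/day, and the labels do not give the sex of a library. The deposited file names give the same 9 animals for both tissues and an additional gastrocnemius animal.

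Creatine kinase regenerates ATP from phosphocreatine, glycogen phosphorylase releases glucose units from glycogen, aldolase and enolase are steps of glycolysis, and lactate dehydrogenase interconverts pyruvate and lactate. Vertebrates keep separate genes for these reactions, and muscle and brain each use a characteristic member of the pair. H3K4me3 marks the start sites of active or poised genes, H3K27ac marks active promoters and enhancers, and H3K27me3 is laid down by Polycomb complexes at repressed genes. Promoters rich in CpG dinucleotides tend to carry H3K4me3 in most tissues and can carry H3K27me3 where the gene is off, whereas CpG-poor promoters are more often marked only where the gene is used.

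The sequences before 6 of the start sites show how the pairs differ in CpG content, which no library value entered. Each is the 250 bases before a TSS on the gene's strand from the RefSeq assembly GRCm38.p6, with every CpG in capitals. Ckm lies at chr7:19410844-19411093 (plus strand), Ckb at chr12:111672339-111672588 (minus), Pygm at chr19:6384158-6384407 (plus) and Pygb at chr2:150786546-150786795 (plus). The first 2 of the 3 Aldoa start sites are at chr7:126800448-126800697 and chr7:126799255-126799504 (both minus).
Ckm: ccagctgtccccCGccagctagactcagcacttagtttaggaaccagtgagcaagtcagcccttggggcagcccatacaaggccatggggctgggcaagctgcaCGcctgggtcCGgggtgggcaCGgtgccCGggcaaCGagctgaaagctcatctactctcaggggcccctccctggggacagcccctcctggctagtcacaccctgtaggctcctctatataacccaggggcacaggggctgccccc
Ckb: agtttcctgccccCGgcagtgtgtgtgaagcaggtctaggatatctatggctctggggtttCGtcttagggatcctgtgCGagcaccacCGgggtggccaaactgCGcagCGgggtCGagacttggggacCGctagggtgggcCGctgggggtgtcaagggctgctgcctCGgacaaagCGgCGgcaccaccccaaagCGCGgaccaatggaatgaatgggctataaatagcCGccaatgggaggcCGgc
Pygm: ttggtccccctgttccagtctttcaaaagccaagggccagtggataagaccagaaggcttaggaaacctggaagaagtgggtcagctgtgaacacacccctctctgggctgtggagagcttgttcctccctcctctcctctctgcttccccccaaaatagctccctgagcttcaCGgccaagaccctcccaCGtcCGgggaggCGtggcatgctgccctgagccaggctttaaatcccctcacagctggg
Pygb: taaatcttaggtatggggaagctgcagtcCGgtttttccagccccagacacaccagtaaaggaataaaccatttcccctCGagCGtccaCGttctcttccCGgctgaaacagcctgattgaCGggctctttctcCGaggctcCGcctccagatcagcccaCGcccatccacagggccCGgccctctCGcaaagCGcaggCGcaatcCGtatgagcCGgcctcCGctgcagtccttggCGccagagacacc
Aldoa TSS 1: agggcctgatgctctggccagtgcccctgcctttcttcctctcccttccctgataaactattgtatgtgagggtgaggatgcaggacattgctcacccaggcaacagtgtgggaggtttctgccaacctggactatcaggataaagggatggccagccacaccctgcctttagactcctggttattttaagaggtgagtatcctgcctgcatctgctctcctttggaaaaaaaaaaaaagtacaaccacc
Aldoa TSS 2: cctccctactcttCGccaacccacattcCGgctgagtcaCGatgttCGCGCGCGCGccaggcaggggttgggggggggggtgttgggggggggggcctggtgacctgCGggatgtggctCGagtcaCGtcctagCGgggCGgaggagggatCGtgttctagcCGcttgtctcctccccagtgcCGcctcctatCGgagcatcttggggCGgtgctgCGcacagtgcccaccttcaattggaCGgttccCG

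Ckm held 6 CpGs in this stretch and Ckb 16, and Pygm held 4 and Pygb 17. Observed CpGs over those expected from base composition were 0.230 for Ckm, 0.191 for Pygm and 0.156 for Eno3, beside a median of 0.373 over 32851 promoters of the same length. The brain forms Ckb, Pygb, Eno2 and Ldhb had higher ratios of 0.669, 0.787, 0.488 and 0.717. The brain aldolase Aldoc had 0.265 at its first and 0.165 at its second start site. Aldoa had no CpG before its upstream start site, and thus a ratio below that of Aldoc, and 21, a ratio of 0.743, before the next one, and the third start site had 0.668. Ldha had 0.886 at its first and 0.495 at its second start site.

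Letter patterns based on known binding motifs were searched on both strands of the same 250 bases. The E-box CAGCTG, a site of the kind bound by myogenic factors, was found 1 time before Ckm and 2 times before Pygm, and 13.0% of all promoters held it. The MEF2-like pattern allowed any base at its middle positions. It was found 1 time before Ckb and 2 times before Ldhb and in 3.20% of promoters. Only A and T filled the middle positions of the Ckb match, whereas each Ldhb match held G or C there. The share of promoters with only A and T there was not computed, and binding of MEF2 was not tested. The Ckb match lay 29 to 20 bases before the TSS and overlapped its TATAAA at 28 to 23 bases. Eno2 held TATAAA on the opposite strand, 201 to 196 bases before the TSS, and 12.4% of promoters held it on either strand. The Sp1-like GGGCGG was found before Aldoa TSS 2 and TSS 3, Aldoc TSS 1 and Ldha TSS 1 and in 32.7% of promoters, and the CArG box was found before none of the 14 and in 1.47% of promoters.

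Values at a TSS are the deposited read counts of called peaks, shared by overlap with the window of 1 kb on each side of the TSS and given as RPM (reads per M reads in autosomal peaks of the library). A library with no peak in the window has the value 0, since reads outside called peaks are not in these files. Reads in peaks ranged from 9.16 M to 18.99 M for H3K4me3, from 3.94 M to 27.3 M for H3K27ac and from 2.99 M to 18.2 M for H3K27me3. For H3K27ac, cortex library 9 had the fewest reads, and for H3K27me3, gastrocnemius library 5 had the most. Genome-wide rank correlations between libraries of a tissue were at least 0.878 for H3K4me3, 0.819 for H3K27ac and 0.644 for H3K27me3. With 1 TSS per gene, 14.8% of genes were called higher in the cortex for H3K4me3 and 8.86% higher in the gastrocnemius. H3K4me3 of neuron markers was called higher in the cortex at 5 of 6 genes, with summed levels of 148 to 173 RPM against 33.2 to 48.9 RPM. The remaining neuron marker went against the label, with no peak in any cortex library and 18.5 ± 2.28 RPM in 10 of 10 gastrocnemius libraries. Skeletal muscle markers were called higher in the gastrocnemius at 5 of 7 genes, with summed levels of 122 to 172 RPM against 55.2 to 95.0 RPM, while Mylpf (42.4 against 24.99 RPM) and Actn3 (35.98 against 27.2 RPM) had higher means in the cortex, under the fold threshold. Snap25 had no H3K4me3 peak in any gastrocnemius library, and Tnnt3, Tnni2 and Myh4 had none in any cortex library, while Acta1 had one in a single cortex library. These 5, like several markers of the other cell types, had peaks in fewer than 3 libraries of the lower tissue, so that passing the test's minimum of 3 libraries in a tissue fixed their direction. Other cell types also moved with the tissue: H3K4me3 was higher in the cortex at 3 of 4 oligodendrocyte, 2 of 3 microglia and 2 of 4 astrocyte markers. It was higher in the gastrocnemius at 2 of 3 markers each of endothelium, Schwann cells and smooth muscle, while the other Schwann cell marker, Sox10, was called higher in the cortex (11.6 against 3.55 RPM). Their part in the values of the isoenzymes was not tested, and in these bulk tissues fewer marked cells and less mark per cell cannot be told apart.

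The tissues were compared at every TSS by edgeR's quasi-likelihood test, and a difference was called at an adjusted p under 0.1 and a fold of at least 2 (a log2 difference of 1). H3K4me3 was called higher in the cortex at 5 of the 6 start sites of brain forms and higher in the gastrocnemius at 2 of the 8 start sites of muscle forms. Over all 21028 windows tested, 15.8% were called higher in the cortex and 9.36% higher in the gastrocnemius, 25.2% in either direction. H3K27ac was called at 4 of 6 brain-form sites (cortex) and 1 of 8 muscle-form sites (gastrocnemius), against 16.9% and 7.26% of 23134 windows (24.2% in either direction). For H3K27me3 only 5 of the 14 sites had peaks in 3 or more libraries of a tissue and could be tested. Ckm was called higher in the cortex and Ckb, Eno2, Pygb and Ldhb were called higher in the gastrocnemius, against 16.4% and 22.8% of 11358 windows (39.2% in either direction). Each of these 5 had a peak in at most 1 library of the tissue where it was lower, and so passed the filter only through the other tissue, which fixed the direction of its call. The same holds for the H3K4me3 calls at both Aldoc sites and at Ckm, which had no peak in the lower tissue, and for the H3K27ac call at Ckm, with a peak in 2 of 9 cortex libraries. The other called sites, Ckb, Eno2, Pygm and Ldhb for H3K4me3 and Ckb, Eno2 and both Aldoc sites for H3K27ac, had peaks in every library of both tissues. Libraries of the tissues did not overlap at 7 of 14 sites for H3K4me3, 5 of 14 for H3K27ac and 2 of 5 for H3K27me3. Over all windows, the shares without overlap were 18.9% (cortex higher) and 6.94% (gastrocnemius higher) for H3K4me3, 15.5% and 4.54% for H3K27ac, and 4.36% and 4.71% for H3K27me3.

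Differences at start sites were not centred on 0. The median log2 difference over all windows was 0.33 for H3K4me3, 0.31 for H3K27ac and 0.06 for H3K27me3, and with TMM factors it was 0.05 for each of the first 2 marks. Over gene bodies with the same scaling as at the start sites it was 0.05 for H3K4me3, 0.10 for H3K27ac and 0.19 for H3K27me3, and with whole peak counts at start sites it was -0.0013, -0.14 and -0.15. The cortex-higher share of H3K4me3 calls was 62.9% (3332 higher, 1968 lower), 53.5% with TMM factors (2751 and 2394) and 52.5% with DESeq2 (2668 and 2411). Differences near 1 on the log2 scale, such as those of Ckb and Ldhb, depended on this choice, as given beside them.

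**Figure D1:**
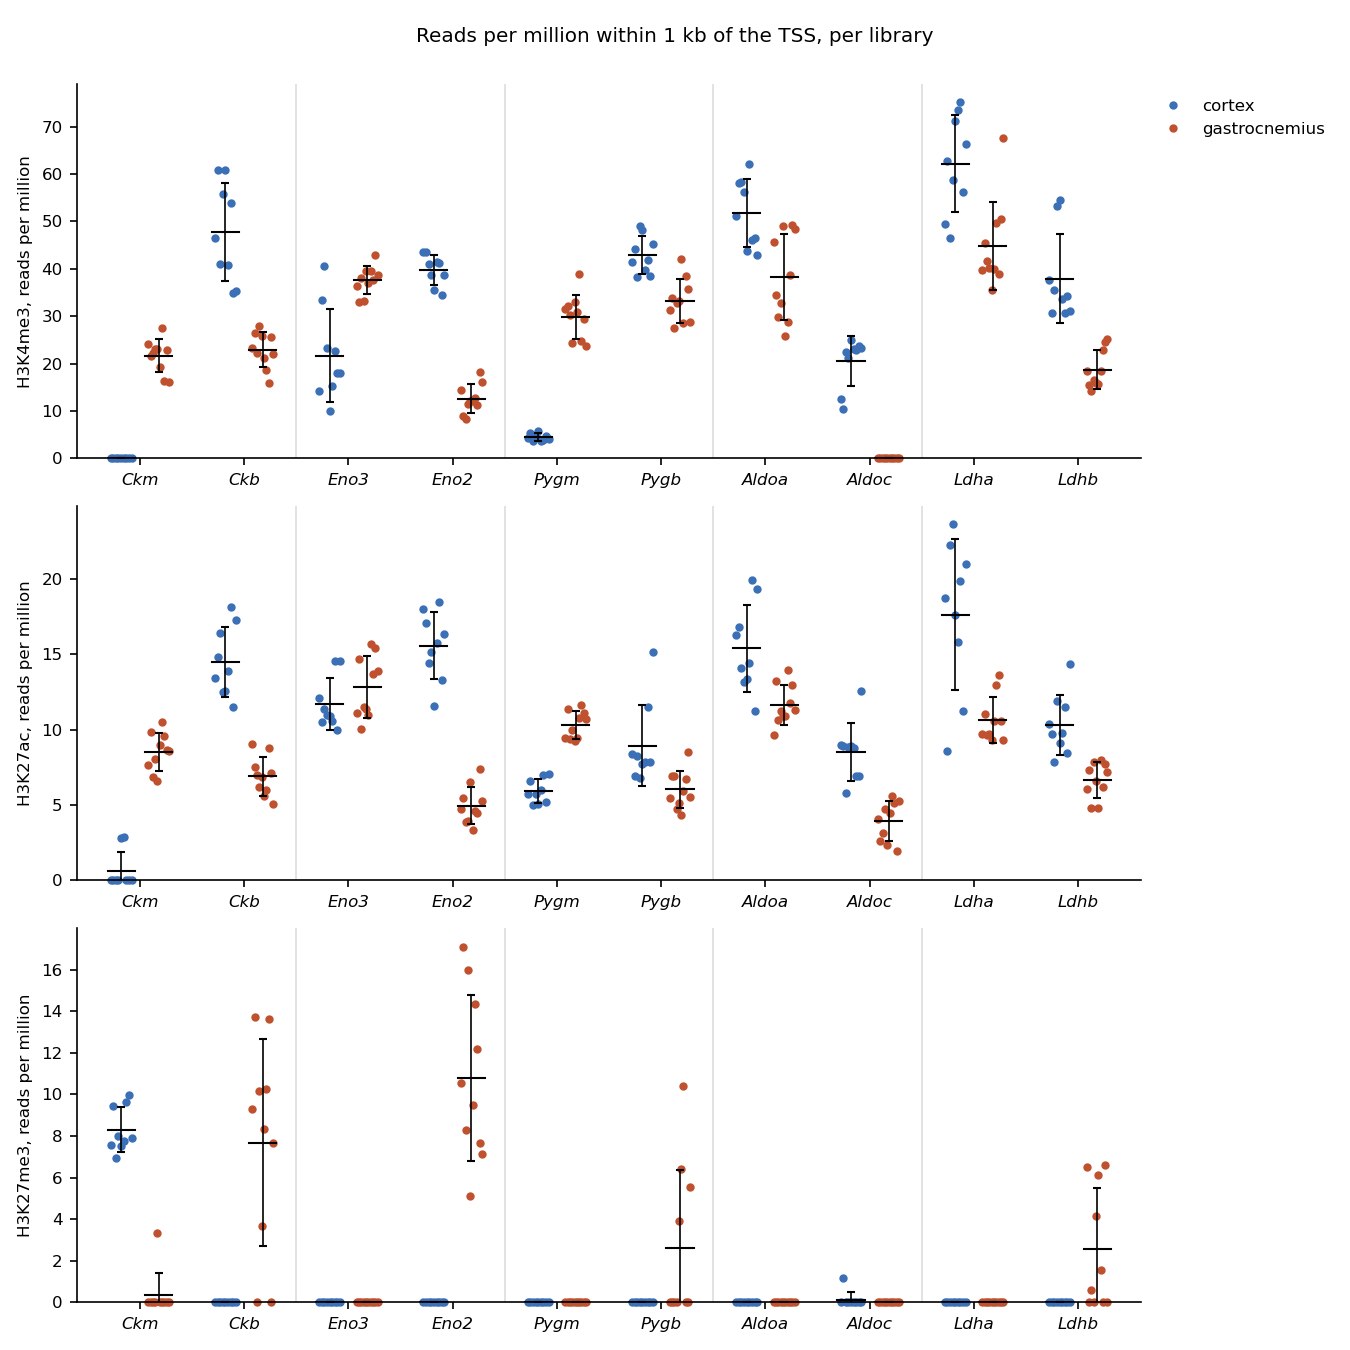
RPM within 1 kb of each member's main TSS in every library, with 1 panel per mark, cortex and gastrocnemius points side by side, muscle and brain forms as neighbours, and black lines for the mean ± SD. H3K4me3 at Ckm is 0 in 9 of 9 cortex libraries and at Aldoc TSS 1 it is 0 in 10 of 10 gastrocnemius libraries, while H3K27me3 is at 0 for most members in at least 1 tissue.

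Ckm, the muscle creatine kinase, showed opposite marks in the 2 tissues. In the gastrocnemius its TSS carried H3K4me3 in 10 of 10 libraries, from 16.1 to 27.5 RPM with a median of 22.6 RPM and a mean of 21.7 ± 3.50 RPM (SD, n = 10). No cortex library had an H3K4me3 peak in the window (edgeR, adjusted p = 2.82e-13). H3K27ac was present in 10 of 10 gastrocnemius libraries, from 6.59 to 10.5 RPM with a median of 8.61 RPM. In the cortex only libraries 5 and 6 had a peak, at 2.83 and 2.85 RPM, and the groups did not overlap (log2 difference -3.64 ± 0.80 SE, adjusted p = 0.000786). H3K27me3 was present in 9 of 9 cortex libraries, from 6.95 to 9.98 RPM with a median of 7.92 RPM. In the gastrocnemius it was seen in library 5, the one with the most reads, at 3.35 RPM, and the groups again did not overlap (4.35 ± 1.09, adjusted p = 0.00398). The H3K27me3 peaks over the Ckm TSS in the cortex had a median width of 2.6 kb, and further peaks lay inside the gene in 8 of 9 cortex libraries.

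Ckb, the cytosolic creatine kinase of brain, carried H3K4me3 and H3K27ac in every library of both tissues and more of each in the cortex. H3K4me3 was 34.8 to 60.9 RPM in the cortex with a median of 46.6 RPM, and 15.9 to 28.0 RPM in the gastrocnemius with a median of 22.7 RPM. The groups did not overlap, and the log2 difference was 1.06 ± 0.13 (adjusted p = 2.81e-07). It was 0.74 with TMM factors, 0.70 with DESeq2 and 0.57 among libraries with a run number in their names, so that in these 3 it stayed under the fold threshold. H3K27ac was 11.5 to 18.2 RPM against 5.04 to 9.05 RPM, also without overlap (1.06 ± 0.12, adjusted p = 1.48e-07; 0.78 with TMM factors and 0.76 with DESeq2). H3K27me3 was seen in no cortex library and in 8 of 10 gastrocnemius libraries, where its median was 8.82 RPM and its highest value 13.7 RPM (adjusted p = 0.000387). Gastrocnemius libraries 3 and 9 had no peak and so overlapped the cortex at 0. In the gastrocnemius the Ckb window thus held peaks of H3K4me3 and H3K27ac in 10 of 10 libraries each and of H3K27me3 in 8 of 10, and bulk tissue does not tell whether the marks shared a cell.

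Eno2, the neuronal enolase, had the largest H3K4me3 and H3K27ac differences at the TSS among the brain forms that carried each mark in both tissues. H3K4me3 ran from 34.5 to 43.6 RPM with a median of 40.9 RPM in the cortex and from 8.28 to 18.3 RPM with a median of 12.1 RPM in the gastrocnemius. The groups did not overlap (1.66 ± 0.12, adjusted p = 7.45e-11). H3K27ac ran from 11.6 to 18.5 RPM and from 3.36 to 7.42 RPM, again without overlap (1.65 ± 0.13, adjusted p = 1.32e-09). H3K27me3 covered the TSS in 10 of 10 gastrocnemius libraries, from 5.10 to 17.1 RPM with a median of 10.03 RPM. It had no peak there in any cortex library (adjusted p = 2.28e-07). The gastrocnemius peaks had a median width of 6.6 kb, and the mean gastrocnemius level stood at percentile 98.4 of all windows.

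Eno3, the muscle enolase, lies close to Pfn1, which encodes the actin-binding protein profilin, and peaks over the Pfn1 TSS reached into its window. H3K4me3 in the window was 33.1 to 42.8 RPM in the gastrocnemius with a median of 37.8 RPM and 9.94 to 40.6 RPM in the cortex with a median of 18.1 RPM. The groups overlapped and the difference was not called (-0.80 ± 0.19, adjusted p = 0.000924), whereas it was called at -1.10 with TMM factors and -1.13 with DESeq2. In 7 of 9 cortex libraries the peak lay over the Pfn1 TSS and ended before the Eno3 TSS, and in libraries 2 and 3 it crossed it. When only peaks that covered at least 50% of the window were used, the difference was -2.23 and was called. A peak that ended before the TSS covers less than that, so only cortex libraries 2 and 3 could keep a value. The window then passed the filter through the gastrocnemius, which fixed the direction of this call too. Over the gene itself H3K4me3 was found in 2 of 9 cortex libraries and covered 3.02% of it on average, against 10 of 10 libraries and 100% of it in the gastrocnemius. The gene-body values per kb were 16.5 to 21.4 RPM in the gastrocnemius and 0 to 3.44 RPM in the cortex, without overlap (-5.01 ± 0.78, adjusted p = 9.58e-06). With peaks in only 2 cortex libraries, the gene passed the filter through the gastrocnemius, which fixed the direction of this call. H3K27ac at the Eno3 TSS was 9.96 to 14.6 RPM in the cortex and 10.02 to 15.6 RPM in the gastrocnemius, and these ranges overlapped (-0.14 ± 0.11, adjusted p = 0.265). The H3K27ac peak over the Eno3 TSS also spanned those of Pfn1, Rnf167 and Slc25a11, in 9 of 9 cortex and 10 of 10 gastrocnemius libraries. Its reads were spread evenly along it, and the part of these neighbours in the values was not tested. No library of either tissue had H3K27me3 at the Eno3 TSS.

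Pygm, the muscle phosphorylase, carried little H3K4me3 in the cortex. Values were 3.59 to 5.86 RPM with a median of 4.27 RPM in the cortex and 23.8 to 38.9 RPM with a median of 30.6 RPM in the gastrocnemius. The groups were far apart (-2.73 ± 0.12, adjusted p = 3.18e-14). H3K27ac was 5.03 to 7.06 RPM against 9.23 to 11.6 RPM. The groups did not overlap, but the difference of -0.80 ± 0.08 (adjusted p = 4.50e-08) was under the fold threshold, and it was called at -1.07 with TMM factors and at -1.09 with DESeq2. H3K27me3 had no peak at the TSS in any library. Inside the gene it had a peak in 5 of 9 cortex libraries, at a median of 1.99 to 5.79 kb after the TSS, and in no gastrocnemius library (adjusted p = 0.00429), and at a floor density for uncalled stretches, described with the H3K27me3 calls, the direction turned to -0.77 and the call was lost.

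Pygb, the brain phosphorylase, differed by less than 2-fold in H3K4me3 and H3K27ac at its start site and by more in H3K27ac along the gene. H3K4me3 at the TSS was 38.2 to 49.0 RPM in the cortex and 27.5 to 42.0 RPM in the gastrocnemius, and the overlapping groups were not called (0.37 ± 0.08, adjusted p = 0.000717). H3K27ac at the TSS was 6.79 to 15.1 RPM and 4.37 to 8.49 RPM (0.53 ± 0.15, not called). Over the gene of 44953 bases, H3K27ac covered 81.8% on average in the cortex and 27.5% in the gastrocnemius. It was 2.03 to 2.92 RPM per kb against 0.146 to 1.09 RPM per kb, without overlap (2.20 ± 0.27, adjusted p = 4.80e-07). In the cortex 36 further H3K27ac peaks touched the gene beyond the one at the TSS, some in each of the 9 libraries. Of these, 9 ran past the end of the gene and over the TSS of Abhd12. Their reads, spread evenly along them, enter the gene value in part. H3K27me3 was seen at the TSS in 4 of 10 gastrocnemius libraries, up to 10.4 RPM, and in no cortex library (adjusted p = 0.0133). The 4 were libraries 5, 6, 7 and 10, of which 5, 6 and 10 have a run number in their names, and the part of the run was not tested. With the animal as a block the call was lost (-3.58, adjusted p = 0.129).

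Aldoa, the aldolase of muscle and of most other tissues, was high in both tissues at all 3 of its start sites. H3K4me3 at the upstream TSS, the one with no CpG before it, was 43.0 to 62.1 RPM in the cortex and 25.7 to 49.3 RPM in the gastrocnemius (0.43 ± 0.13, not called). At the other two start sites it was 44.0 to 70.9 RPM and 25.7 to 49.3 RPM (0.71 ± 0.13, not called). H3K27ac was 11.2 to 19.9 RPM and 9.67 to 13.96 RPM at all 3 sites (0.39 ± 0.11, not called), and H3K27me3 had no peak in any library. The 3 windows share 1 peak, which in the cortex covered 83.5% of the upstream window for H3K4me3, so their values are not independent of each other. When a window took all reads of the peaks it touched, the direction turned, to -0.60 for H3K4me3 and -1.37 for H3K27ac, since the gastrocnemius peaks were longer.

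Aldoc, the brain aldolase, had H3K4me3 at its start sites in the cortex alone. Its first TSS held 10.4 to 25.1 RPM with a median of 22.9 RPM and its second 12.4 to 34.0 RPM with a median of 31.1 RPM. Cortex libraries 1 and 2 were the lowest at both sites. No gastrocnemius library had an H3K4me3 peak in either window (adjusted p = 3.93e-11 and 6.94e-11). H3K27ac was nevertheless called in 10 of 10 gastrocnemius libraries. At the first site it was 5.76 to 12.6 RPM in the cortex and 1.96 to 5.57 RPM in the gastrocnemius, without overlap (1.10 ± 0.19, adjusted p = 6.17e-05; 0.80 with TMM factors and 0.79 with DESeq2, under the threshold). At the second site the gastrocnemius ran from 0.394 to 6.38 RPM and overlapped the cortex (1.13 ± 0.33, adjusted p = 0.00650; 0.83 with TMM factors and 0.82 with DESeq2). The H3K27ac peak over the first TSS also reached the TSS of the neighbour Pigs, in 6 of 10 gastrocnemius and 7 of 9 cortex libraries. Its reads were spread evenly along it, and the part of Pigs in these values was not tested. H3K27me3 was seen in cortex library 2 only and was not tested.

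Ldha, the lactate dehydrogenase subunit that prevails in muscle, had with Aldoa the highest mean H3K4me3 at the TSS of the 10 genes in both tissues. H3K4me3 at the first TSS was 46.6 to 75.2 RPM in the cortex and 35.5 to 67.6 RPM in the gastrocnemius (0.47 ± 0.12, not called), and gastrocnemius library 10 was apart from the others. The second TSS gave 0.33 ± 0.11 and was also not called. H3K27ac at the first TSS was 8.59 to 23.6 RPM and 9.29 to 13.6 RPM (0.72 ± 0.16, not called), and the ranges overlapped. Over the whole gene the sign was the opposite for both marks. H3K4me3 was 5.73 to 8.18 RPM per kb in the cortex and 8.24 to 11.6 RPM per kb in the gastrocnemius, without overlap (-0.38 ± 0.08, not called). H3K27ac was 1.26 to 2.91 RPM per kb in the cortex and 2.95 to 6.24 RPM per kb in the gastrocnemius. The H3K27ac groups did not overlap either, and the difference of -0.84 ± 0.17 (adjusted p = 0.000260) was under the fold threshold.

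Ldhb, the subunit that prevails in heart and brain, had H3K4me3 of 30.6 to 54.5 RPM with a median of 34.3 RPM in the cortex and 14.2 to 25.2 RPM with a median of 17.5 RPM in the gastrocnemius. The groups did not overlap and the difference of 1.02 ± 0.14 (adjusted p = 2.14e-06) was just past the fold threshold. It was 0.98 with the animal as a block, 0.73 with TMM factors, 0.69 with DESeq2 and 0.97 by limma with a pseudocount of 1, in each case under it. H3K27ac was 7.87 to 14.3 RPM and 4.78 to 8.0 RPM, with a narrow overlap (0.62 ± 0.12, adjusted p = 0.000229, not called). H3K27me3 was found in 6 of 10 gastrocnemius libraries, up to 6.60 RPM, and in no cortex library (adjusted p = 0.00626).

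The H3K27me3 calls rest on the presence or absence of called peaks. When an uncalled window was given a floor density instead of 0, the percentile 5 of peak densities in its library, none of the 5 calls at start sites remained, with differences of 0.44 for Ckm, -0.91 for Eno2, -0.60 for Ckb, -0.24 for Pygb and 0.03 for Ldhb. In simulated H3K27me3 data on 11341 windows, the test at the FDR alone recovered 22 of 100 windows changed 2-fold and 43 of 100 changed 4-fold. The simulated counts were drawn from a negative binomial distribution around a pooled mean, without peak calling. This recovery therefore does not describe the calls above, which also needed the fold threshold.

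**Figure D2:**
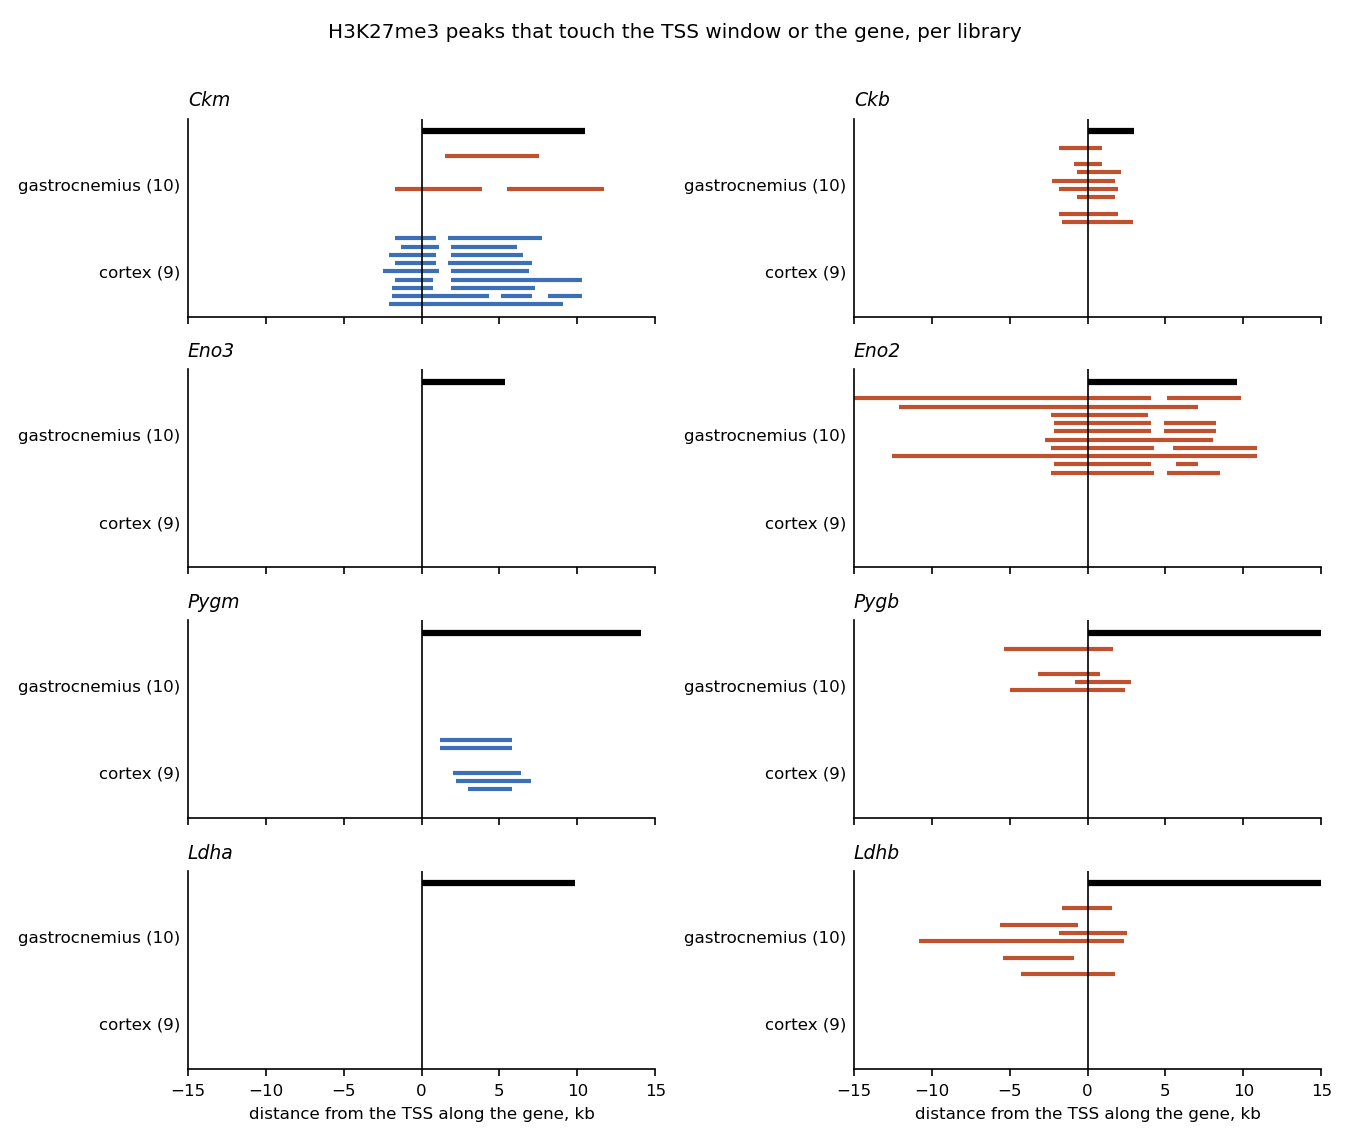
H3K27me3 peaks in panels for 8 of the 10 genes, drawn as bars by distance from the TSS in kb (gene direction to the right), with 1 row per library. Aldoa and Aldoc are not drawn, and Eno3 and Ldha had no peak in any library. The black bar at the top is the gene and the vertical line its TSS, peaks beyond 15 kb are cut, and Ckm bars fill the 9 cortex rows while Eno2 bars fill the 10 gastrocnemius rows.

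Over the gene from its first to its last annotated base, H3K4me3 was called at 4 of 5 brain forms (cortex higher) and 3 of 5 muscle forms (gastrocnemius higher), against 16% and 12.5% of 17542 genes (28.5% in either direction). Libraries of the tissues did not overlap at 9 of 10 genes, against 18.5% of genes with the cortex higher and 12.7% with the gastrocnemius higher. H3K27ac was called at 3 of 5 brain and 2 of 5 muscle forms, against 22% and 15.9% of 19357 genes (37.9% in either direction). H3K27me3 was called at 4 brain forms (gastrocnemius higher) and 2 muscle forms (cortex higher) of the 6 genes tested, against 22.7% and 22.6% of 10965 genes (45.3% in either direction). All 6 had a peak in at most 2 libraries of the tissue where they were lower and passed the filter through the other tissue, which fixed the direction. The H3K27me3 libraries did not overlap at Ckm (cortex higher, against 9.41% of genes) and Eno2 (gastrocnemius higher, against 10.1%), and H3K27ac libraries did not at 6 of 10 genes (against 19.9% and 15.7%). With the animal as a block the H3K27me3 calls over Pygb and Ldhb were lost (-4.50, adjusted p = 0.109, and -4.60, adjusted p = 0.108). At the floor density the direction turned over 4 of the 6 genes, to -0.063 for Ckm, -0.77 for Pygm, 0.40 for Pygb and 0.26 for Ldhb, and none of the 6 remained called.

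Peaks over neighbouring start sites reached into some of these gene bodies. Ckm had H3K4me3 over 20.2% of its length in the cortex and 89.5% in the gastrocnemius, and the cortex part was a peak at the 3′ end, over the TSS of A930016O22Rik, in 9 of 9 libraries (-2.67 ± 0.12). Aldoc had H3K4me3 over 98.2% of its length in the cortex, and in 9 of 10 gastrocnemius libraries it had a peak at its 3′ end over the TSS of Pigs (2.47 ± 0.42). The cortex peak of Aldoc also reached the Pigs TSS, in 7 of 9 libraries. Pygm had H3K4me3 over 23.9% of its length in the cortex and 83.5% in the gastrocnemius (-3.51 ± 0.11). In the cortex it held a short peak at the TSS, a peak within the gene in 9 of 9 libraries and, in 8 of 9, a peak over the TSS of Rasgrp2.

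Peaks over the main TSS also differed in width. Width was compared by limma on the log2 scale at genes with a peak over the TSS in 3 or more libraries of each tissue, and a difference was called at an adjusted p under 0.1 and a width ratio of at least 2. For H3K4me3, Pygm had widths of 1.6 to 2.8 kb in the cortex with a median of 2.4 kb, and 9.8 to 18.8 kb in the gastrocnemius with a median of 12.4 kb. The groups did not overlap (-2.50 ± 0.14, limma, adjusted p = 2.05e-12), and Pygm had rank 48 of the 14008 genes tested, ordered from wider in the gastrocnemius. Aldoa had 4.6 to 10.6 kb and 7.6 to 39.6 kb (-1.27 ± 0.25, adjusted p = 0.000196), and this call was lost when widths were set relative to the median of each library (-0.91). Ldha had 2.4 to 4.0 kb and 3.8 to 7.8 kb with a slight overlap (-0.97 ± 0.13, not called). Across all genes, 14.3% were called, 10.5% wider in the gastrocnemius and 3.81% wider in the cortex, with a median of -0.40. The widths did not overlap at 10.2% of genes with the gastrocnemius wider and 4.34% with the cortex wider.

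Among the brain forms no H3K4me3 width was called in the main comparison. Ckb had 4.6 to 8.0 kb in the cortex and 2.8 to 9.4 kb in the gastrocnemius (0.67 ± 0.20, and 1.03, called, relative to library medians, where 6.58% of genes were called wider in the cortex and 4.08% wider in the gastrocnemius). Among libraries with a run number the Ckb difference was 1.36 and was called, as were 1391 of 13739 genes. It was 0.35 and not called among libraries without one. In the main comparison Eno2 gave 0.39, Pygb 0.18 and Ldhb -0.13. Ckm and Eno3 had too few cortex peaks to be tested over all libraries. Their gastrocnemius peaks had median widths of 9.4 and 25.1 kb, the latter reaching over Pfn1 in 10 of 10 libraries and over Rnf167 and Slc25a11 in 9. Among libraries without a run number, where peaks in 2 libraries of a tissue sufficed, Eno3 was -2.07 and was called, as were 2201 of 14011 genes. This value rests on 2 cortex peaks, which also reached over Pfn1.

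**Figure D3:**
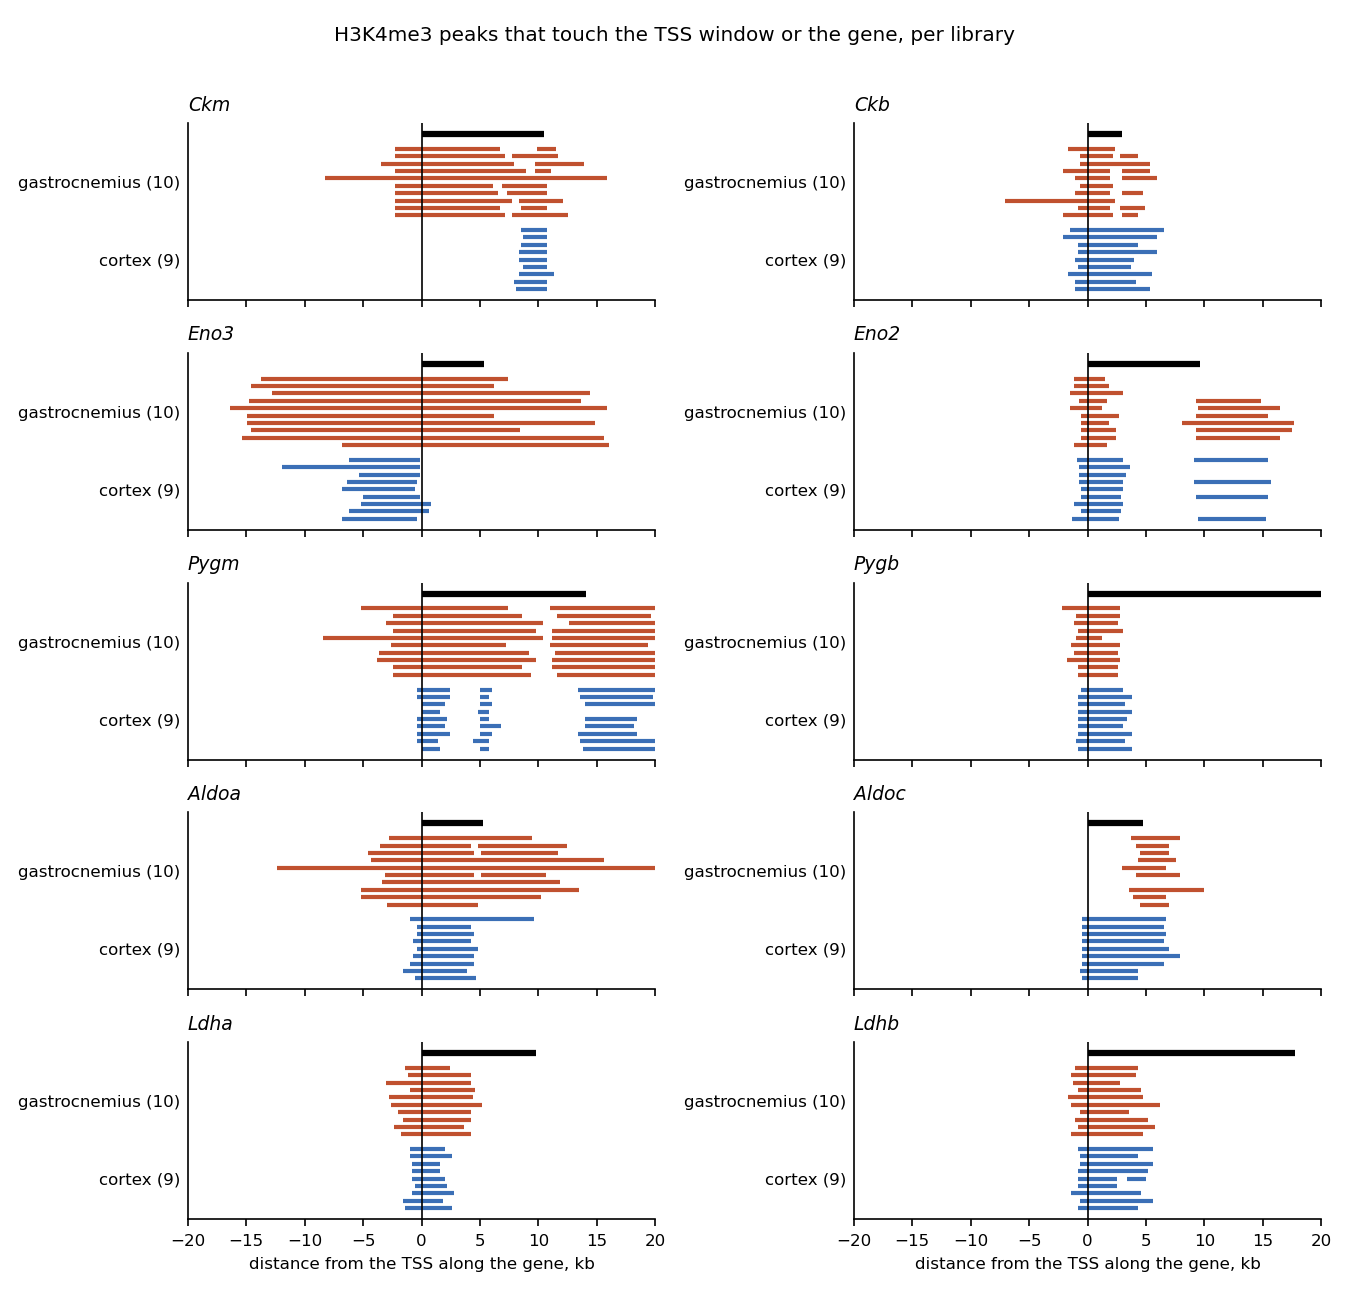
H3K4me3 peaks that touch the TSS window or the gene, drawn as bars by distance from the main TSS in kb (gene direction to the right), with 1 row per library and 1 panel per gene. The black bar at the top is the gene, peaks beyond 20 kb are cut, and the median width over the Pygm TSS is 2.4 kb in the cortex and 12.4 kb in the gastrocnemius.

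H3K27ac peaks were longer still in the gastrocnemius. Pygm had 9.0 to 16.4 kb in the cortex and 35.8 to 93.2 kb in the gastrocnemius (-2.73 ± 0.18, adjusted p = 1.00e-10). Ldha had 2.4 to 13.0 kb and 19.6 to 35.4 kb (-2.79 ± 0.24, adjusted p = 8.62e-09), and its gastrocnemius peaks began at a median of 24.4 kb before the TSS without reaching the TSS of another curated gene. Aldoa had 8.8 to 32.2 kb and 46.6 to 77.6 kb (-1.84 ± 0.24, adjusted p = 3.09e-06). None of these 3 overlapped between the tissues, against 11.9% of genes with the gastrocnemius wider and 3.15% with the cortex wider. Eno3 had 18.8 to 57.4 kb and 36.4 to 92.0 kb and was not called (-0.83 ± 0.27, -0.23 relative to library medians, and -1.35, called, among libraries with a run number), and Ckm had a median of 30.4 kb in the gastrocnemius and a peak over the TSS in only 2 cortex libraries. Ckm could be tested only among libraries without a run number, where it was -3.57 and was called, as were 4804 of 14617 genes. Across all genes and libraries, 32.1% were called, 26.7% wider in the gastrocnemius and 5.47% wider in the cortex, with a median of -0.51.

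The brain forms had H3K27ac width differences of 0.69 for Ckb, 0.63 for Eno2, 0.76 for Pygb, 0.78 for Aldoc and 0.19 for Ldhb, none of them called. Among libraries without a run number Pygb was called at 1.07, and among those with one it was -0.041. Relative to the median width of each library, 4 of the 5 were called wider in the cortex, at 1.30, 1.24, 1.37 and 1.39 in the same order, and Ldhb was 0.80. Under that setting 12.9% of all genes were called wider in the cortex and 11% wider in the gastrocnemius. The long gastrocnemius peaks took in neighbouring start sites. The Pygm peak spanned Sf1 and Gm14966 in 10 of 10 libraries and Men1 and Map4k2 in 8. Ppp4c, Tbx6 and Ypel3 were spanned with Aldoa in 10 of 10, and A930016O22Rik with Ckm in 10 and Klc3 in 9. The Eno3 peak spanned Pfn1, Rnf167, Slc25a11, Gp1ba and Spag7 in 10 of 10. In the cortex the Eno3 peak spanned Pfn1, Rnf167 and Slc25a11 in 9 of 9 libraries.

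**Figure D4:**
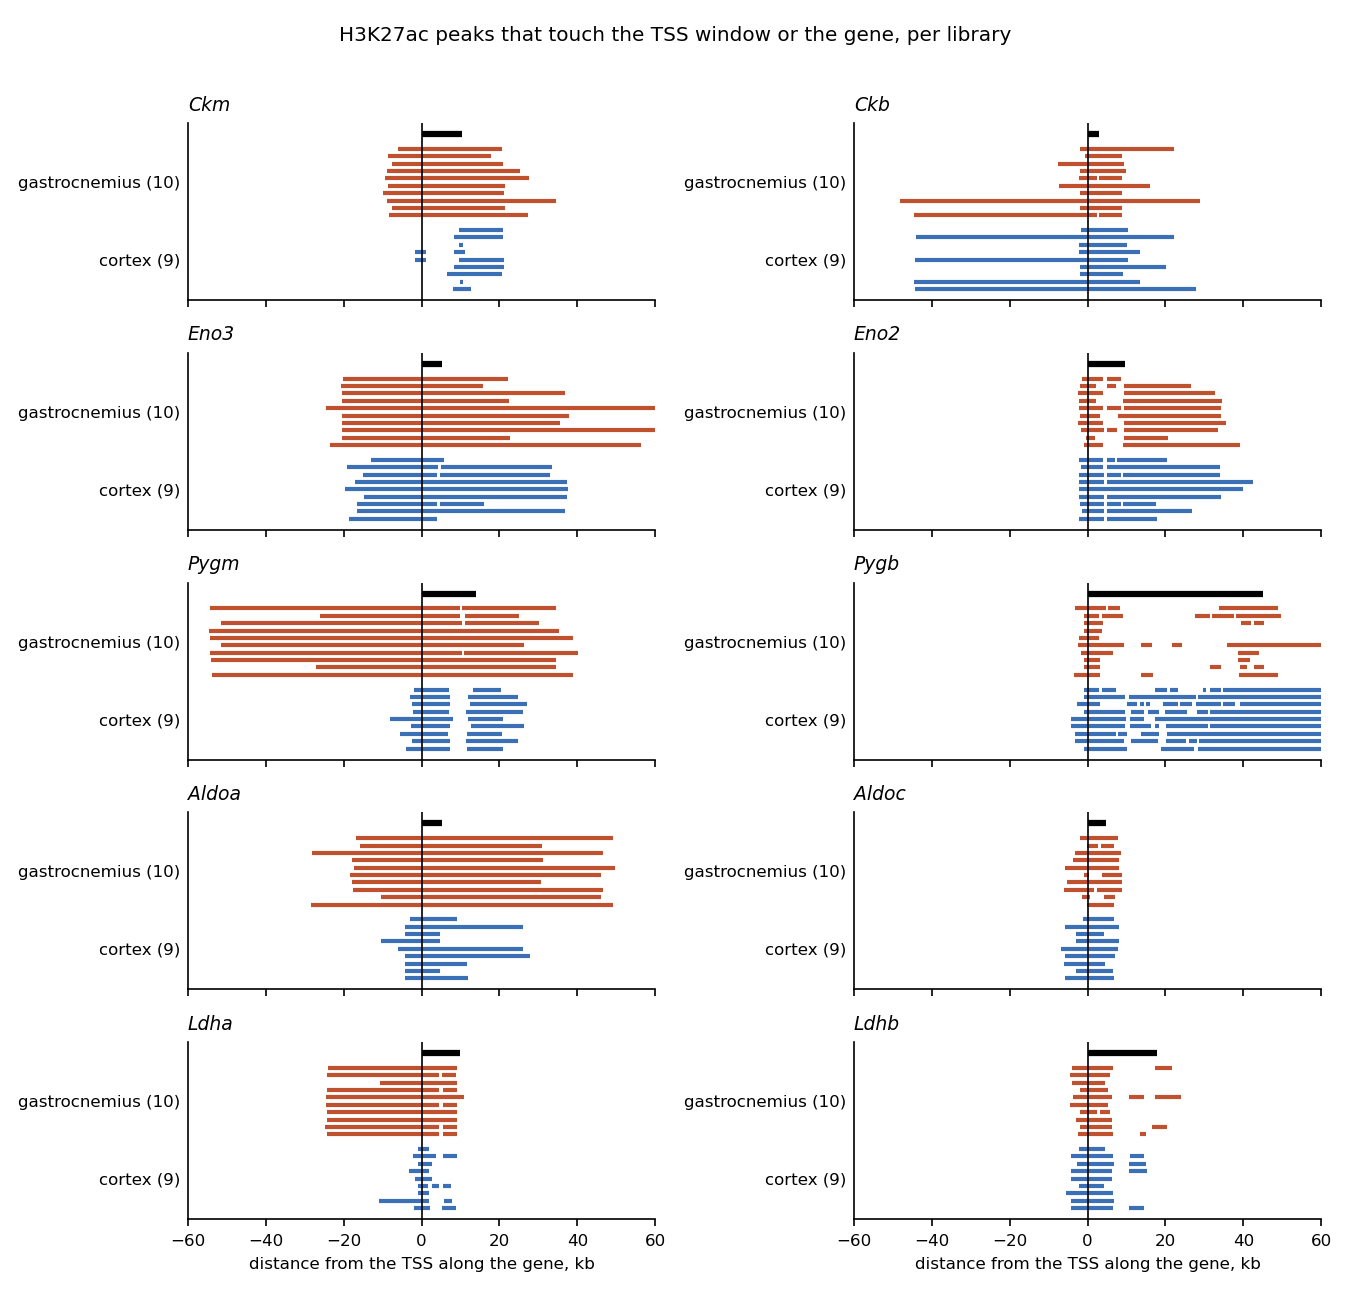
H3K27ac peaks that touch the TSS window or the gene, drawn as bars by distance from the main TSS in kb (gene direction to the right), with 1 row per library and 1 panel per gene. Peaks beyond 60 kb are cut, the black bar is the gene, and the median width over the Ldha TSS is 4.2 kb in the cortex and 29.3 kb in the gastrocnemius.

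Within a library, the log2 ratio of the muscle form to the brain form (RPM plus 1, main TSS) depends little on library scaling, though it does depend on how peaks are counted, and it is given as a description with no test. For H3K4me3, Ckm over Ckb was -5.58 ± 0.31 (SD, n = 9) in the cortex and -0.08 ± 0.26 (SD, n = 10) in the gastrocnemius. Eno3 over Eno2 was -0.95 ± 0.56 and 1.53 ± 0.27, and Pygm over Pygb was -3.01 ± 0.16 and -0.15 ± 0.31. Aldoa over Aldoc was 1.33 ± 0.53 and 5.26 ± 0.34. The tissues did not overlap for these 4 pairs, and they did for Ldha over Ldhb, with 0.71 ± 0.41 and 1.22 ± 0.24. In the gastrocnemius the ratios of the creatine kinases and of the phosphorylases were near 0, and their sign varied among libraries. With whole peak counts both were above 0 in every gastrocnemius library, at 1.25 ± 0.75 and 1.53 ± 0.47, and Eno3 over Eno2 in the cortex turned to 0.76 ± 0.31.

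For H3K27ac, the ratio did not overlap between tissues for Ckm over Ckb (-3.51 ± 0.94 and 0.27 ± 0.32), Eno3 over Eno2 (-0.38 ± 0.18 and 1.23 ± 0.25) and Pygm over Pygb (-0.49 ± 0.27 and 0.70 ± 0.20). It overlapped for the aldolases (0.79 and 1.41) and the lactate dehydrogenases (0.68 and 0.61). For H3K27me3, the cortex gave 3.21 ± 0.16 for Ckm over Ckb and the gastrocnemius -2.45 ± 1.69, and Eno3 over Eno2 was 0 in every cortex library and -3.48 ± 0.51 in the gastrocnemius. With whole peak counts the H3K27ac ratio of Eno3 over Eno2 in the cortex turned to 1.62 ± 0.74, and the tissues no longer overlapped for the aldolases and the lactate dehydrogenases in H3K27ac or for the lactate dehydrogenases in H3K4me3. Ldha over Ldhb in the cortex turned to -0.08 ± 0.12 for H3K4me3 and -0.38 ± 0.21 for H3K27ac. Ratios of other gene pairs were not computed, so these overlaps have no background.

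**Figure D5:**
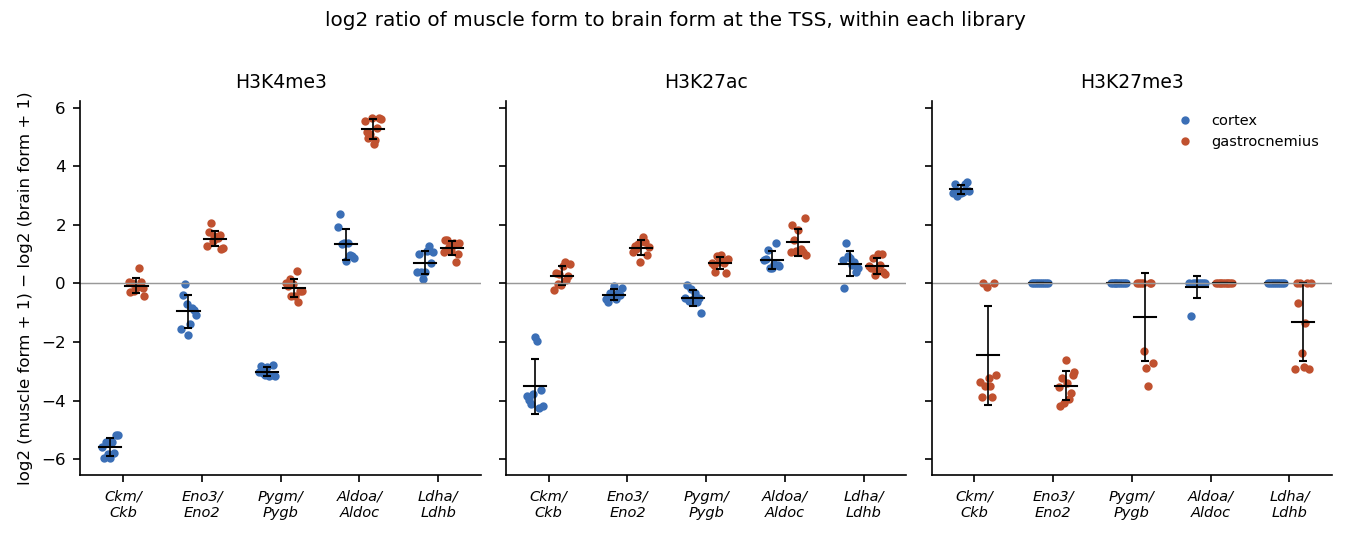
Log2 ratio of muscle form to brain form (RPM plus 1 at the main TSS) in every library, with 1 panel per mark, the 5 pairs along the x axis, cortex and gastrocnemius points side by side and black lines for the mean ± SD. For H3K4me3 the gastrocnemius points lie above the cortex points without overlap in 4 of the 5 pairs, and for H3K27me3 at Ckm over Ckb they lie below.

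Other metabolic genes were taken as 3 lists, with 1 TSS per gene. Besides the pathways of the pairs, they hold glucose and lactate transporters, cytochrome oxidase subunits and enzymes of transmitter metabolism such as Gad1, Gad2 and Glul. Of 14 muscle-form genes outside the pairs, H3K4me3 was called higher in the gastrocnemius at 9 and higher in the cortex at 0, with a median log2 difference of -2.87 beside 0.33 over all genes. Over all genes, 8.86% were called higher in the gastrocnemius and 14.8% in the cortex. Of the 9, 5 had no peak in any cortex library and Pgam2 had one in 2, so that these 6 passed the filter through the gastrocnemius, which fixed their direction, and the fitted differences of the 5 depend on the prior count. Gys1, the muscle glycogen synthase, and Pfkm, the muscle phosphofructokinase, had higher means in the cortex (43.5 against 27.97 RPM and 59.7 against 45.5 RPM), under the fold threshold. Cox6a2 and Cox8b, muscle subunits of cytochrome oxidase, held 27.6 ± 6.55 and 19.9 ± 5.58 RPM (SD, n = 10) in the gastrocnemius and no peak in any cortex library, and Pgam2, the muscle phosphoglycerate mutase, held 28.7 ± 3.74 and 0.496 ± 0.985 RPM. H3K27ac was called higher in the gastrocnemius at 6 of the 14 (median -0.58 beside 0.31 over all genes), with Ampd1, the muscle AMP deaminase, at 9.37 ± 2.25 RPM against no peak, so that it passed the filter through the gastrocnemius, and Ckmt2, the muscle mitochondrial creatine kinase, at 9.25 ± 2.37 against 1.69 ± 2.03 RPM. The background for H3K27ac was 7.16% higher in the gastrocnemius and 16.1% higher in the cortex. H3K27me3 was called higher in the cortex at 6 of the 7 tested, against 16.4% of genes, and each of the 6 had a peak in at most 1 gastrocnemius library, so that the filter fixed the direction. Slc2a4, the insulin-responsive glucose transporter, held 9.57 ± 1.40 RPM (SD, n = 9) and Slc16a3, a lactate transporter, 7.61 ± 1.38 RPM in the cortex, with no peak in the gastrocnemius.

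Of 14 brain-form genes outside the pairs, H3K4me3 was called higher in the cortex at 4 of 12 tested, against 14.8% of genes (median 0.52 beside 0.33 over all genes), among them Gad1, which makes the transmitter GABA, at 16.1 ± 7.46 RPM against no peak. Ckmt1, the mitochondrial creatine kinase outside muscle, held 14.5 ± 3.97 RPM against 0.846 ± 1.82 RPM. Slc2a1, a glucose transporter of the blood-brain barrier, had the lower mean in the cortex, 17.5 against 33.9 RPM (-0.95, adjusted p = 2.78e-06), under the fold threshold. H3K27ac was called higher in the cortex at 5 of 13, against 16.1% of genes (median 0.63 beside 0.31 over all genes), with Gad1 at 7.70 ± 3.47 and Gad2 at 6.34 ± 2.19 RPM against no peak. Gad1 for H3K4me3 and Gad1, Gad2 and Slc16a7 for H3K27ac had no peak in the gastrocnemius and passed the filter through the cortex, which fixed the direction. H3K27me3 was called higher in the gastrocnemius at 2 of 7 tested, both through the gastrocnemius alone, against 21.7% of genes: Pfkp, the platelet form of phosphofructokinase, in 8 of 10 gastrocnemius and 0 of 9 cortex libraries, and Slc2a3, the neuronal glucose transporter, in 10 of 10 and 2 of 9.

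Of 20 genes of glycolysis, glycogen and creatine metabolism with no form assigned to either tissue, H3K4me3 was called at 1 of 18 tested, against 14.8% (cortex higher) and 8.86% (gastrocnemius higher) of genes, with a median of 0.26 beside 0.33 over all genes. That gene was Gatm, an enzyme of creatine synthesis, with 20.1 ± 1.06 RPM in the cortex and 9.32 ± 2.21 RPM in the gastrocnemius (1.11 ± 0.12, adjusted p = 7.57e-08). H3K27ac was called higher in the cortex at Gatm and higher in the gastrocnemius at Ldhc, the testis lactate dehydrogenase, where levels were at most 0.414 RPM on average and 1 cortex library had a peak, against 16.1% and 7.16% of genes. Ldhc passed the filter through its 5 gastrocnemius libraries, which fixed its direction. H3K27me3 was called higher in the gastrocnemius at 3 of 5 tested, against 21.7% of genes, among them Gatm (10 of 10 libraries) and the liver phosphorylase Pygl (6 of 10), both without a peak in the cortex, and all 3 passed the filter through the gastrocnemius.

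Start sites with few CpGs before them include those of Ckm, Pygm, Eno3 and Aldoc. Among tested windows, those with few CpGs had a larger called share for H3K4me3 and H3K27ac and a smaller one for H3K27me3. These shares leave out windows without a peak in 3 or more libraries of a tissue. How far that filter sets them was not tested. Tested windows with a CpG ratio under 0.3 were called for H3K4me3 at 61.6% (1908 of 3099) and those at or over 0.45 at 15.4% (2393 of 15571). For H3K27ac the shares were 44.9% and 15.3%, and for H3K27me3 they were 35.4% and 43.8%. Among the members, H3K4me3 was called at Ckm, Pygm and both Aldoc sites, which are under 0.3, and at Ckb, Eno2 and Ldhb, which are over 0.45. Eno3 and the upstream Aldoa TSS are under 0.3 and were not called.

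The genes whose H3K4me3, H3K27ac and H3K27me3 levels at the TSS lay closest to a member over all 57 libraries were found by Euclidean distance on log2 of RPM plus 1, among 26088 genes. For Ckm these were Klhl31 (distance 3.15) and Smyd1 (3.18), both known for roles in striated muscle, beside a median distance of 20.3 to all genes. For Pygm they were Txlnb (2.24) and 9330159F19Rik (2.24), and for Eno3 Gm10575 (1.89) and 9330136K24Rik (1.99). For Eno2 they were Scrn1 (2.02) and the activity-regulated Arc (2.39). For Aldoc they were Asah2 (2.77) and Gpr61 (3.28), and for Ckb Shfl (3.70) and Abcg1 (3.78). Aldoa and Ldha had the closest neighbours, Pank1 (1.46) and Sec24a (1.46) for Aldoa and C130060C02Rik (1.56) and Sec24a (1.58) for Ldha. For Pygb they were Plekhh2 (3.42) and Apba1 (3.79), and Ldhb had the most distant ones of the 10 members, H2bc8 (4.20) and Ptk7 (4.20).

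Cortex libraries 8 and 9 and gastrocnemius libraries 5, 6, 9 and 10 carry a run number in their deposited names and the others do not, and the differences were recomputed within each set. For H3K4me3 the differences with and without a run number were -2.71 and -2.74 for Pygm, 1.32 and 1.86 for Eno2, 0.57 and 1.20 for Ckb, 0.68 and 1.16 for Ldhb and -1.13 and -0.68 for Eno3. No cortex library of either set had H3K4me3 at Ckm and no gastrocnemius library of either set had it at Aldoc. For H3K27ac they were 1.38 and 1.81 for Eno2, 1.19 and 0.97 for Ckb, 1.44 and 0.96 for the first Aldoc site and -0.75 and -0.82 for Pygm. Of 59 member values tested at start sites and gene bodies, 43 kept their direction and their side of the threshold among libraries with a run number, 13 kept their direction but were no longer called, and 3 became called. Among libraries without one, 53 of 56 were as before and 3 lost their call. Every one of these values that could be fitted within a set kept its direction.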

How the data were processed

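Histone H3 marks were profiled by ChIP-seq in cortex (n = 9) and gastrocnemius (n = 10) of PSAPP mice. Reads were aligned by the authors to mm10 with BWA, filtered with SAMtools and called into peaks in each library separately with epic2 (version not stated there) without an input library. Each peak has a deposited raw count of its fragments, made by the authors with no normalization. The epic2 score deposited beside it was used only to drop the 25% of peaks with the lowest scores as an alternative.

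Counts of a peak were shared evenly along it over each TSS window (1 kb on each side) and gene of the curated RefSeq annotation of GRCm38.p6, so a sharp summit inside a long peak is spread out. Windows with a peak in at least 3 libraries of a tissue were tested with edgeR 4.0.16 (quasi-likelihood, library sizes from autosomal peak counts, Benjamini-Hochberg over all windows), with an FDR under 0.1 and a fold of at least 2. Peak widths were tested with limma 3.58.1, a test chosen after values had been seen. DESeq2 1.42.0, R 4.3.3, Python 3.11.15, NumPy 2.4.6, pandas 2.3.3 and SciPy 1.17.1 were also used. Cortex and gastrocnemius libraries of 9 animals are paired by the animal in the deposited file names. Deviations from tissue means correlated by -0.07 to 0.05 (H3K4me3), -0.06 to 0.07 (H3K27ac) and 0.04 to 0.13 (H3K27me3) between libraries of the same animal. The labels do not say that libraries of a tissue come from separate animals, and those names do.

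The 10 members and the gene lists were chosen with earlier results of these data known. Named are all members, per list and mark the 2 called genes with the largest change in each direction, neighbours inside a member's peaks, and the 2 genes closest to each member. Chosen after their values were seen were Pgam2, Gys1, Pfkm, Slc2a1, Slc16a7 and the cell type markers given by name. The code was tested on simulated data. Alternatives covered scaling, tests, filters, window size, how peaks are counted, replicate blocks and the run number in the file names. The precision given covers spread between libraries only. The values of 1 gene of the metabolic list are not reported here.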

Additional observations from a re-analysis of the deposited data

Results flagged for a closer look

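Values that stood apart from the other libraries of their tissue were found in 11 of 99 groups of member values by Dixon's test on the gap to the nearest library, where chance gives about 1 in 20. That rate does not apply to 4 of the 11, at Ckm and Aldoc for H3K27me3, where every other library was at 0 and a single peak meets the test by itself. At Ckm, H3K27me3 in gastrocnemius library 5, the library with the most reads of its group, was 3.35 RPM while the other 9 libraries had no peak. At Aldoc, H3K27me3 appeared in cortex library 2 alone, at 1.15 RPM at the first TSS, 5.89 RPM at the second TSS and 2.69 RPM per kb over the gene. Among the H3K4me3 libraries, which are separate, the one from the same animal by its file name was the lowest of the 9 cortex libraries at Aldoc, at 10.4 RPM at the first TSS.

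H3K4me3 at Aldoa TSS 2 was low in the H3K4me3 cortex library 9, at 44.0 RPM beside a median of 64.8 RPM. The H3K27ac cortex library 9, a separate library, was high at the first Aldoc TSS, at 12.6 RPM beside a median of 8.86 RPM, and over the Aldoc gene, at 6.27 RPM per kb beside 4.43 RPM per kb. At the first Ldha TSS, H3K4me3 in gastrocnemius library 10 was 67.6 RPM beside a median of 40.9 RPM. Over Pygb, H3K4me3 in gastrocnemius library 6 was low at 0.564 RPM per kb (median 1.02), H3K27me3 in the separate H3K27me3 gastrocnemius library 6 was high at 0.223 RPM per kb (median 0), and H3K27ac in cortex library 7 was low at 2.03 RPM per kb (median 2.72).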

How the results depend on the processing

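Counts of called windows and genes moved by over 1.5 times under 5 alternatives. With the FDR alone and no fold threshold, H3K4me3 gave 15878 windows and 11926 genes instead of 5300 and 5003, and H3K27ac gave 14671 and 14053 instead of 5594 and 7337. H3K27ac windows numbered 9913 (48.2% higher in the cortex instead of 70%) with whole peak counts, 3197 (80.6%) with uncalled windows at the floor density and 3198 among libraries with a run number. H3K27me3 windows went from 4455 to 6724 with no filter, 207 at the floor density and 2250 among libraries with a run number, and genes from 4969 to 2188 and 2876. H3K27ac widths went from 4718 to 2096 among libraries with a run number.

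Whole peak counts turned the direction of 12 of 59 member values: H3K4me3 at the 3 Aldoa start sites (-0.60), the 2 of Ldha (-0.39) and the Aldoa gene (-0.75), and H3K27ac at the Aldoa start sites and gene (-1.37) and the Ldha start sites (-2.05). They also ended the H3K4me3 calls at the Ldhb TSS (0.97), the Ldhb gene (0.98) and the Aldoc gene (0.72) and the H3K27ac call over Eno2 (0.69), and added H3K4me3 at the Eno3 TSS (-1.65) and H3K27ac at the Pygb (1.22) and Pygm (-3.55) TSS and over Ldha (-1.999). By construction these counts add all reads of long gastrocnemius peaks. Ldha TSS 2 H3K4me3 turned to -0.00097 with DESeq2 and -0.10 with a window of 2.5 kb. At the floor density H3K27me3 turned to 0.029 at the Ldhb TSS and, over genes, to -0.063 for Ckm, 0.26 for Ldhb, 0.40 for Pygb and -0.77 for Pygm. Widths of Ldhb turned to 0.23 for H3K4me3 relative to library medians and to -0.24 for H3K27ac among libraries with a run number, where Pygb was -0.041. Except for those set by construction, the cause was not tested.

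The animal as a replicate block gave 5080, 5389 and 3988 called windows for H3K4me3, H3K27ac and H3K27me3 and 5135, 7523 and 4805 genes. It ended 4 member calls of 59 and changed no other. The replicate number of the titles as a block, which pairs libraries by number only, gave 5121, 5432 and 5255 windows and ended 3. TMM factors ended 5 member calls and added 2, DESeq2 ended 6, added 2 and turned 1, limma with a pseudocount of 1 ended 3 (H3K4me3 at the Ldhb TSS and H3K27ac at the Ckb TSS and the first Aldoc TSS, each at 0.97 to 0.98), and leaving out the library that stands apart, chosen after the totals were seen, ended none of 35. The H3K4me3 calls at the Ckm TSS and both Aldoc start sites held under every alternative run on them. Called peaks limit what is seen: weak signal below the caller's threshold counts as 0.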
